A study of Mus musculus with 4 samples.

Results

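Cuedc1 and the peaks of nascent transcription around it were examined in 4 PRO-seq libraries from mouse embryos (E14.5). Cuedc1 (ENSMUSG00000018378.13) lies on the plus strand of chromosome 11, at chr11:88098058-88194140 (GRCm38), and encodes a protein with a CUE domain, a small fold that binds ubiquitin. The members are all peaks with their middle in chr11:88000001-88300000: 8 in liver replicate 1, 9 in liver replicate 2, 29 in yolk sac replicate 1 and 27 in yolk sac replicate 2, out of 24863, 24333, 50525 and 43055 peaks in the whole lists. Joined across libraries wherever they overlapped by at least 1 bp, they made 32 regions of 61095 in all. The interval was chosen on these lists, by the larger number of peaks in yolk sac than in liver, so numbers, widths and scores of these peaks are given as a description, without a test.

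Liver and yolk sac tissue was taken on day E14.5, and each of the 2 libraries per tissue was made from tissue of 6 embryos pooled before grinding. Mothers were C57BL/6J, and fathers had a mixed C57BL/6J and CAST/EiJ background with CAST/EiJ alleles only at the Dlk1/Gtl2 locus of chromosome 12. Both tissues share this cross, although the sample labels spell the first strain C57BL/6h. Nothing in the labels says whether replicates came from separate pools, so the spread between them may be technical.

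PRO-seq maps RNA polymerases that are engaged on DNA by letting them extend their nascent RNA. The dREG classifier, named in the deposited lists, then marks intervals whose run-on pattern looks like transcription initiation, at promoters and also at active enhancers, which are transcribed in both directions. The mouse yolk sac has a visceral endoderm that absorbs and secretes nutrients, and below it mesoderm with vessels and blood islands. The liver of this stage is the main site of blood formation and is rich in red cell precursors. In such bulk tissue, fewer cells of a type and less transcription per cell cannot be told apart.

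The labels were checked against promoter peaks of marker genes, a promoter peak being one within 500 bp of an annotated start site. Both liver lists had promoter peaks at 7 of 7 erythroid genes and both yolk sac lists at 1, Tal1. Of 8 visceral endoderm genes, 8 had promoter peaks in each yolk sac list, against 6 and 4 in liver, where Amn and Cubn had none. Of 8 hepatocyte genes, 5 had promoter peaks in all 4 lists, Cps1 in both liver lists only and Fgb in both yolk sac lists only. Endothelial genes counted 6 and 6 of 6 in yolk sac and 4 and 5 in liver, and mesenchymal genes 7 and 7 of 8 in yolk sac and 3 and 5 in liver. The part of any of these cell types in the Cuedc1 peaks was not tested.

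Sequences were available for annotated start sites. Of the 9 RefSeq start windows in the interval (GRCm38.p6), 3 are shown. They lie at starts of Cuedc1 and differ in which libraries had a peak overlapping the window, which need not cover the start itself. Each window runs from 250 bases before to 50 bases after the start, 5′ to 3′ on the plus strand. Capitals mark matches to the motifs named below. The first is the start of the full-length protein-coding transcript, here the main start, at chr11:88098896-88099195, and all 4 libraries had a peak overlapping this window. The liver replicate 2 peak began at 88099151, just after the start at 88099146. The second, at chr11:88097808-88098107, is the start that RefSeq lists as 2210416O15Rik and GENCODE as a short noncoding transcript of Cuedc1. Yolk sac replicate 2 alone had a peak overlapping this window, and that peak ended at 88097902, before the start at 88098058. The third is an internal RefSeq start of Cuedc1 at exon 2, chr11:88169315-88169614, and no library had a peak overlapping this window.
Cuedc1, main start: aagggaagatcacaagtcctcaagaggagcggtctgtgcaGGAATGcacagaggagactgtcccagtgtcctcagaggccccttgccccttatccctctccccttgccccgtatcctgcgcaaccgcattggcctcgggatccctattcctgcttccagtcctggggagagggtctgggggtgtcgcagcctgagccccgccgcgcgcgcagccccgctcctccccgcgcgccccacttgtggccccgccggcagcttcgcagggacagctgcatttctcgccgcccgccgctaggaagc
2210416O15Rik, upstream start: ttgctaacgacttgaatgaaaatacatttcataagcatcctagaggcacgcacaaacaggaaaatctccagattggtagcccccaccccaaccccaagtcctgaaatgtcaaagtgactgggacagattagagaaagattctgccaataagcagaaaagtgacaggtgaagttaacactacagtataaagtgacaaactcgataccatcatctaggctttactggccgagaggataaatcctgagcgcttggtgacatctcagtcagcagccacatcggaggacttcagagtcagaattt
Cuedc1, internal start at exon 2: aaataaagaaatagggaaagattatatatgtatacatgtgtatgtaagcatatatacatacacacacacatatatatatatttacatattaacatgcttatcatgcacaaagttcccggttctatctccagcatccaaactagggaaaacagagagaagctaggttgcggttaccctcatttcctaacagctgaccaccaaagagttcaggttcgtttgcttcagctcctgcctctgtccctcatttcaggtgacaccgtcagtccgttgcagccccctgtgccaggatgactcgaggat

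The 3 windows differed in base composition. GC content was 67% at the main start, at the 86.2 percentile of the 32851 RefSeq windows of the mouse genome. It was 44.3% at the upstream start and 42% at the internal start, at the 21.1 and 14.9 percentiles, against a median of 52.7% over all windows. The main start had 22 CpG dinucleotides, the upstream and the internal start 6 each. The ratio of observed to expected CpG was 0.665 at the main start, 0.408 at the upstream start and 0.461 at the internal start, with a median of 0.384 over all windows. The neighbouring promoters with a peak in all 4 libraries had 58.3% GC and 22 CpG at Srsf1, 84% and 51 at Vezf1, and 63.3% and 25 at Mrps23. Vezf1 alone of these exceeded the main start of Cuedc1 in GC content. In observed to expected CpG each of them exceeded it, with 0.877 at Srsf1, 0.967 at Vezf1 and 0.878 at Mrps23.

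The windows were searched on both strands for short motifs of factors of endoderm, blood and mesoderm: the motif AGATAA of GATA factors, TGACTCA of AP-1, TGTTTAC of forkhead factors, GGAATG of TEAD factors, CCGGAAG of ETS factors and TGTGGTT of RUNX factors, and longer motifs of HNF4, HNF1 and the SP and KLF factors. The only match in the 3 windows shown was GGAATG at the main start, bases 41 to 46 of the window. Of all 32851 windows, 14.7% held that motif. In the other windows of the interval, Vezf1 and Mrps23 held CCGGAAG (8.86% of all windows), Vezf1 the SP and KLF motif (17.6%), Gm34366 GGAATG, and Ccdc182 TGACTCA (5.2%). No window of the interval held the GATA (11.2% of all windows), forkhead (3.65%), RUNX (5.27%), HNF4 (0.475%) or HNF1 (0.00913%) motif. A match describes the letters only. Sequences of the intron 1 regions were not analysed here.

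The number of peaks was highest in yolk sac within the Cuedc1 gene itself. The yolk sac mean for the interval was 28 ± 1.41 peaks and the liver mean 8.5 ± 0.707 (SD, n = 2 libraries each), 19.5 apart. Inside the gene, yolk sac had 18 and 17 peaks, liver 3 and 3. In yolk sac these peaks covered 18.9% and 15.0% of the gene, in liver 1.83% and 1.46%. The liver and yolk sac values did not overlap. The window chr11:88100001-88200000 had 17 and 16 yolk sac and 2 and 2 liver peaks. It was 1 of 7326 windows in which both yolk sac lists exceeded both liver lists. These were 55.3% of the 13246 windows with a peak in any library, and windows without peaks were not counted. Yolk sac lists are longer in the whole genome, and when each list was shortened to its top 24333 peaks by score, 17 and 17 yolk sac peaks and 8 and 9 liver peaks were left in the interval.

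**Figure D1:**
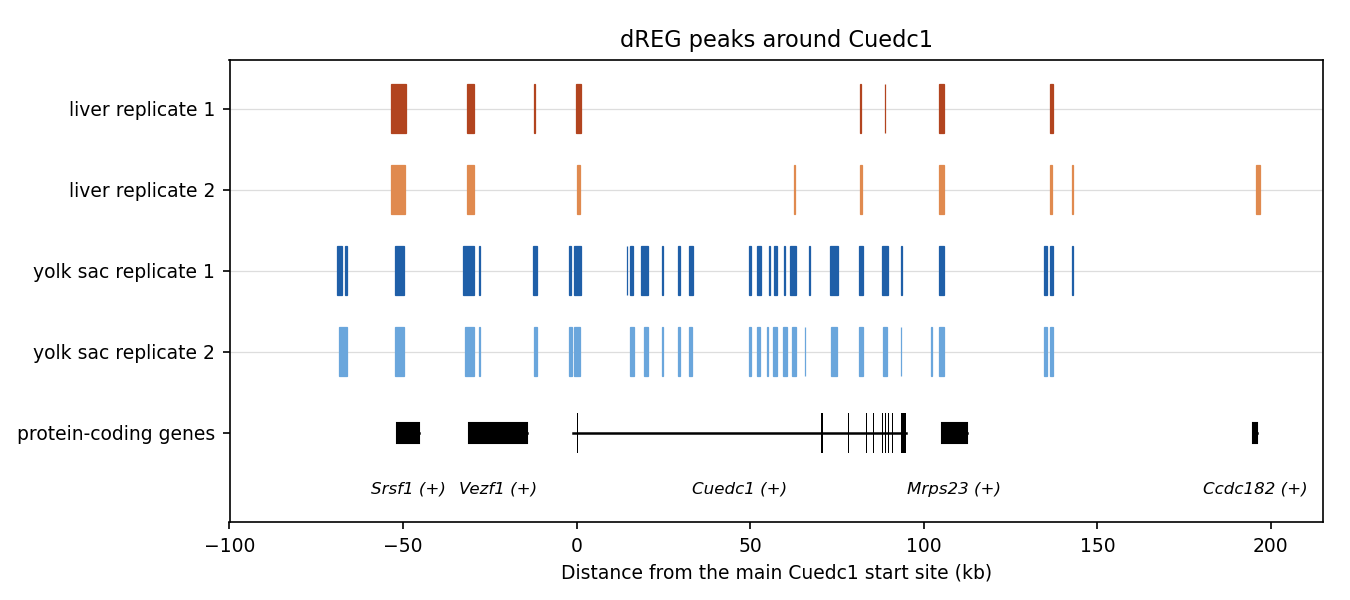
Peaks of the 4 libraries as blocks by distance from the main Cuedc1 start site in kb, with protein-coding genes below, all on the plus strand (Cuedc1 with its exons). The narrowest blocks are drawn at the smallest visible width. The yolk sac libraries have 18 and 17 peaks along the Cuedc1 gene and the liver libraries 3 and 3.

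Of the 32 regions, 15 were yolk-sac-only, meaning called in both yolk sac libraries and neither liver library, a pattern that 33.0% of all regions of the series had. None was liver-only, against 6.62% in the series. A further 6 were called in all 4 libraries (25.7% in the series), 3 in both yolk sac libraries and 1 liver library, 6 in 1 yolk sac library only, 1 in liver replicate 2 and yolk sac replicate 1, and 1 in liver replicate 2 only. Base pairs covered in the interval overlapped with a Jaccard index (shared over either) of 0.748 between the liver lists and 0.709 between the yolk sac lists. Across tissues the index was between 0.248 and 0.302. Of the base pairs covered in liver replicate 1, 86.3% were also covered in yolk sac replicate 1, and of those in yolk sac replicate 1, 29.3% in liver replicate 1.

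Most yolk-sac-only regions lay inside Cuedc1, in its long first intron. The gene held 20 regions: 11 yolk-sac-only, 2 in all 4 libraries, 2 in both yolk sac and 1 liver library, and 5 in 1 yolk sac library only. Intron 1 of the main transcript spans chr11:88099344-88169564, or 73.9% of the transcript, and held 15 regions, 9 of them yolk-sac-only. Intron 2 held 1 yolk-sac-only region and the last exon, number 11, another. Introns 4 to 6 and 8 to 10, each 2471 bp or shorter, held none. The 15 regions of the gene called in both yolk sac libraries were separated by gaps of 898 to 16048 bp, with a median of 3898 bp. The longest gaps, chr11:88132653-88148700 and chr11:88100353-88114600, were both in intron 1.

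Scores were compared only within a list, as the percentile of a peak, the share of the peaks of its list with the same or a lower score. The yolk-sac-only regions of the gene are given in order of the lower of their 2 percentiles, because the score sets which of them remain in a shorter list. Highest was the intron 2 region, 74.1 kb from the main start at chr11:88172051-88174352. It reached the 92.6 percentile in yolk sac replicate 1 and 94.2 in replicate 2, with peaks 2302 and 1552 bp wide. Next came the intron 1 region at chr11:88155851-88157002, with percentiles of 85.4 and 75.3 and widths of 1052 and 952 bp. The intron 1 region at chr11:88151051-88152152, 52.5 kb from the start, had percentiles of 72.7 and 95.5 and widths of 1102 and 902 bp. At chr11:88117551-88119652, percentiles were 93.8 and 71.5, and the peak was 2102 bp wide in replicate 1 and 1002 bp in replicate 2. These regions scored above most of both lists. That they had no liver peak follows from the definition of yolk-sac-only.

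The next regions of intron 1 scored higher in replicate 1 than in replicate 2. The region at chr11:88148701-88149402 had percentiles of 79.2 and 50.8, with widths of 652 and 602 bp. That at chr11:88131651-88132652 had 70.5 and 46.6, with widths of 1002 and 752 bp. At chr11:88114601-88115552, the first yolk-sac-only region after the promoter, they were 68.0 and 45.1, and both peaks were 902 bp wide. At chr11:88128251-88128952 they were 83.1 and 44.5, with widths of 702 and 502 bp. Each of these was thus in the upper part of one list and near the middle of the other.

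The lowest scores were at the remaining 3 regions. The intron 1 region at chr11:88123701-88124102 had percentiles of 11.6 and 8.9, with widths of 402 and 152 bp. The region over the start of exon 11, at chr11:88192451-88192852, had percentiles of 36.6 and 4.3, with widths of 402 and 102 bp. At chr11:88158701-88159752, in intron 1, they were 4.2 and 29.4, with widths of 402 and 1052 bp. Regions of the interval called in 1 yolk sac library only lay lower still or alike, between the 0.9 and 19.2 percentiles, with peaks 102 to 402 bp wide. The lowest scores of these peaks, 0.804 and 0.806, were close to 0.80, the lowest score in every list.

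Among the 11 regions inside Cuedc1, the median percentile was 72.7 in yolk sac replicate 1 and 46.6 in replicate 2, and the median width 902 bp in both. Over all peaks of yolk-sac-only regions in the series, median percentiles were 47.6 and 37.8 and median widths 802 and 652 bp. Across all 15 yolk-sac-only regions of the interval, percentiles of the 2 libraries had a Pearson r of 0.753 and a Spearman rho of 0.796, and widths an r of 0.787 and a rho of 0.705. These correlations are over regions that share their libraries. Edges of the same region differed between the 2 libraries by a median of 100 bp at the start and 150 bp at the end. The summed peak width was larger in replicate 1 at 11 regions, larger in replicate 2 at 3 and equal at 1.

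**Figure D2:**
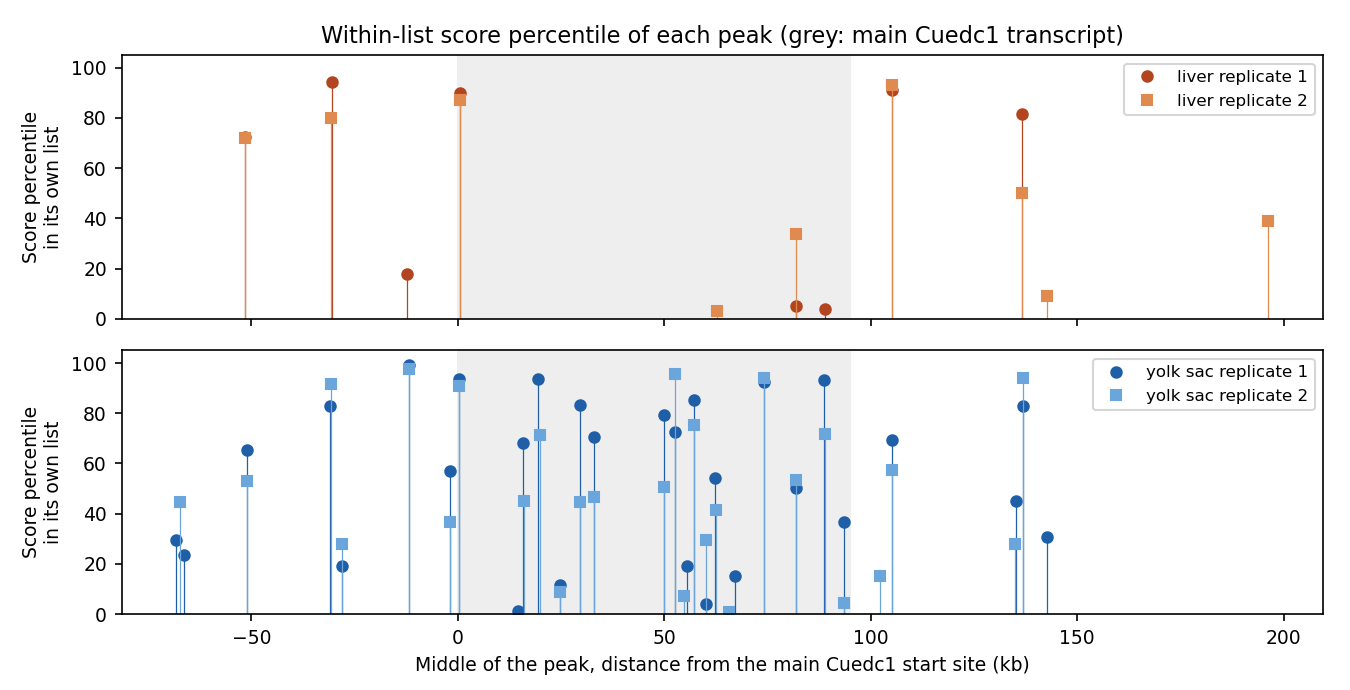
Score percentile of each peak within its own list (y axis) against the distance of its middle from the main Cuedc1 start site in kb (x axis), for the liver libraries above and the yolk sac libraries below. Over the main transcript, shaded grey, liver peaks other than that at the promoter lie at or below the 33.8 percentile. Yolk sac peaks there reach 93.8 in replicate 1 and 95.5 in replicate 2.

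The liver lists were not empty inside Cuedc1. Apart from the promoter, liver replicate 1 had a peak of 302 bp in intron 3 (5.2 percentile) and one of 102 bp at intron 7 and exon 8 (3.8 percentile). Liver replicate 2 had one of 102 bp in intron 1 (3.2 percentile) and one of 352 bp in intron 3 (33.8 percentile). All of these narrow liver peaks lay wholly inside wider yolk sac peaks. In intron 3, at chr11:88180351-88181652, the yolk sac peaks were 1202 and 1302 bp wide and stood at the 50.3 and 53.6 percentiles. At intron 7, chr11:88187251-88188702, they were 1452 and 1202 bp wide, at 93.3 and 71.9. In intron 1, at chr11:88160651-88162352, they were 1702 and 1252 bp wide, at 54.4 and 41.3.

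Annotated start sites inside the gene coincided with some of these regions. A transcript classed as subject to nonsense-mediated decay starts at 88162261, within the intron 1 region just described. Both yolk sac libraries had a peak within 250 bp of that start and neither liver library did, although the liver replicate 2 peak lay within 500 bp. The start of a retained intron transcript, at 88187821, had a peak within 250 bp in liver replicate 1 and both yolk sac libraries. The starts of 2 further noncoding transcripts, at 88182303 and 88186009, had no peak within 500 bp in any of the 4 libraries, and the RefSeq start at exon 2 shown above had none over its window. The other regions of the gene outside its promoter, 9 of the 11 yolk-sac-only ones in intron 1 among them, were more than 500 bp from every annotated start.

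At the promoter, all 4 libraries had a peak within 250 bp of the main start of Cuedc1. By the looser measure of a peak within 500 bp of any annotated start, 53.8% of 21951 protein-coding genes had a peak in all 4 libraries. The peak at the main start of Cuedc1 was 1352 bp wide in liver replicate 1 and 952 in liver replicate 2. It was 2102 bp wide in yolk sac replicate 1 and 1702 in yolk sac replicate 2. In that order, these peaks stood at the 89.9, 87.2, 93.7 and 90.8 percentiles of their lists. Each yolk sac peak was wider than each liver peak, by 1.65-fold on average. The difference lay mainly upstream: yolk sac peaks began 550 to 900 bp before the liver peaks, and the downstream edges of the 4 peaks were within 250 bp of each other. The upstream start, at 88098058, had a peak within 500 bp in yolk sac replicates 1 and 2 but in no liver library. Within 1000 bp, liver replicate 1 had one as well. The yolk sac lists also had a separate peak upstream of that start, at chr11:88096801-88097902, 802 and 1102 bp wide at the 56.8 and 36.5 percentiles.

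Widths at the other regions with a peak in every library did not all follow this order. The region in intron 3 of Cuedc1 was wider in yolk sac, at 302 and 352 bp in liver and 1202 and 1302 bp in yolk sac. The promoter of Vezf1, a zinc finger transcription factor required for vascular development, had peaks of 2152 and 2002 bp in liver and 3202 and 2652 bp in yolk sac. Upstream of it, yolk sac replicate 1 alone reached within 500 bp of a start of the long noncoding RNA Gm15892. At the promoter of Srsf1, which encodes a splicing factor, the order was opposite, with 4302 and 4002 bp in liver and 2802 and 2602 bp in yolk sac. There the liver peaks began 1150 to 1300 bp further upstream. The peaks of all 4 libraries covered the starts of Srsf1 and of the noncoding RNAs 2010015M23Rik and Gm11508 on the other strand, which cannot be told apart in a peak list. The Mrps23 promoter, of a gene for a mitochondrial ribosome protein, had 1652 and 1552 bp in liver and 1652 and 1502 bp in yolk sac, and these overlapped. Of these 6 regions, 4 were wider in both yolk sac libraries and 1 in both liver libraries. In the series, 41.4% and 18.6% of 14515 regions with 1 peak per library had these orders.

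**Figure D3:**
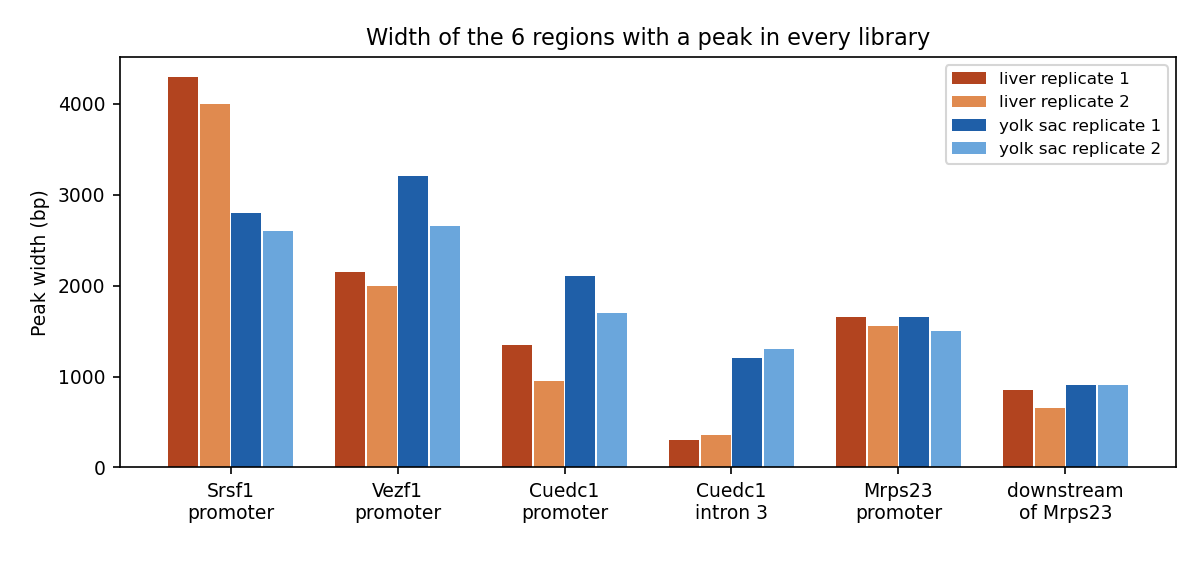
Peak width in bp (y axis) of the 6 regions with a peak in every library, with 1 bar per library. Bars of the Cuedc1 promoter are higher in yolk sac (2102 and 1702 bp) than in liver (1352 and 952 bp), and those of Srsf1 lower (2802 and 2602 against 4302 and 4002 bp).

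Between Vezf1 and Cuedc1 stood the peak with the highest percentile of the interval. It lay 11.9 kb before the main start of Cuedc1, at chr11:88086701-88087752, outside annotated genes. In yolk sac it was 1002 bp wide in both libraries, at the 99.4 and 97.6 percentiles. Liver replicate 1 had a peak of 252 bp inside it, at the 17.9 percentile, and liver replicate 2 had none there. The call in 1 liver library keeps it out of the yolk-sac-only regions.

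The other yolk-sac-only regions outside Cuedc1 scored lower. In the antisense RNA gene Gm11508, 67.6 kb before Cuedc1 at chr11:88030151-88033002, yolk sac replicate 1 had peaks of 1502 and 602 bp (29.4 and 23.4 percentiles) and replicate 2 one of 2252 bp (44.6). Within Vezf1, at chr11:88070951-88071252, the peaks were 302 and 252 bp wide at the 19.0 and 27.8 percentiles. Downstream of Mrps23, at chr11:88233801-88234702, they were 902 and 652 bp wide at 45.1 and 28.1. Next to the last of these, the region at chr11:88235451-88236352 was called in all 4 libraries, with percentiles of 81.5 and 50.1 in liver and 82.9 and 93.9 in yolk sac. Ccdc182 had no promoter peak in any library, and the nearest, in liver replicate 2 alone, was 793 bp from its start (1152 bp wide, 38.9 percentile).

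The edges of the interval fell between peaks. The first peaks inside were at 88045551 and 88045601 in liver, over Srsf1, and at 88030151 and 88030701 in yolk sac. The last peaks before it ended at 87988052 and 87988002 in liver and at 87992452 and 87992302 in yolk sac. After it, the next peak began at 88716151 and 88716601 in liver and at 88386301 and 88386501 in yolk sac. Peaks just outside were 1152 and 852 bp wide before the interval and 1202 and 202 bp after it in the yolk sac libraries. They stood at the 65.7 and 91.1 percentiles before it and at 45.3 and 11.1 after it.

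Peaks in the 300 kb on either side, which had no part in choosing the interval, were then counted. On the side before Srsf1, chr11:87700001-88000000, yolk sac had 13 and 12 peaks and liver 13 and 11 (difference 0.5, exact two-sided permutation p = 1). On the side after Ccdc182, chr11:88300001-88600000, yolk sac had 11 and 9 and liver 0 and 0. The difference of 10 exceeded the spread between replicates (exact two-sided permutation p = 0.3333, the smallest p that 2 libraries against 2 allow). All of these yolk sac peaks lay within Msi2, a gene for an RNA-binding protein known from blood stem cells, on the minus strand at chr11:88339382-88718513. Across the genome, both yolk sac lists exceeded both liver lists in 55.3% of the 100 kb windows with a peak in any library. The share for stretches of 300 kb is not given here. For both sides together the difference was 10.5 peaks (exact two-sided permutation p = 0.3333). With lists of the top 24333 peaks by score, the difference for both sides together was -0.5, so its direction depended on list length. Liver had no peaks on the side after Ccdc182, so shorter lists could not turn that side negative. The sides are not given apart for the shorter lists. In the Cuedc1 interval the difference was then 8.5, but that interval was chosen for its difference, so the 2 values are not comparable.

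**Figure D4:**
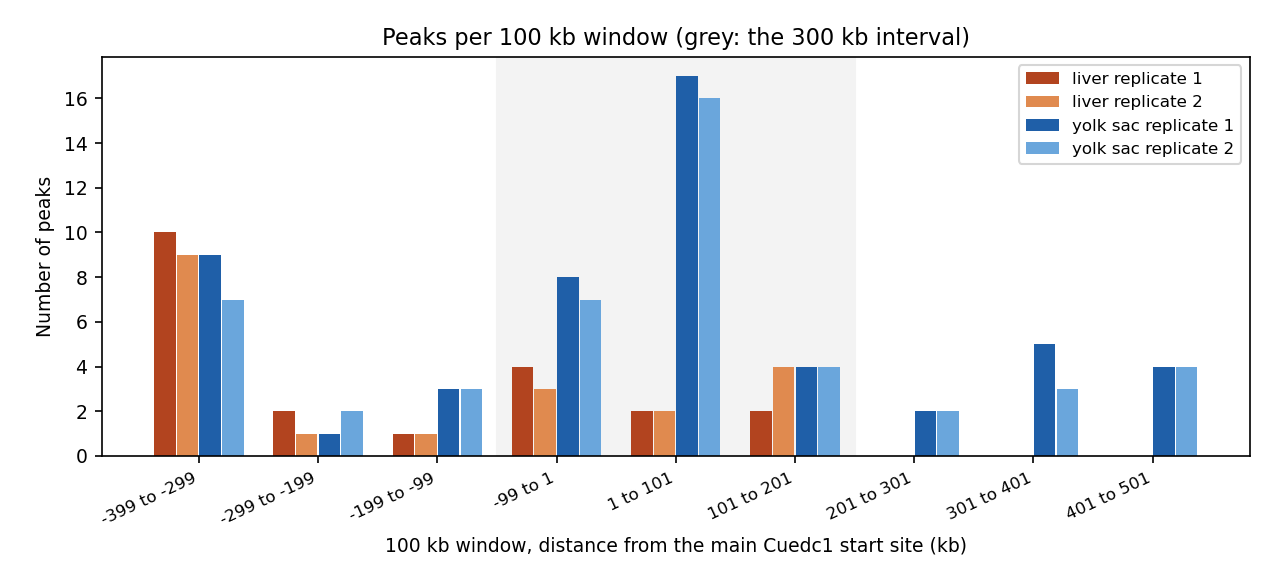
Number of peaks per 100 kb window (y axis) by distance from the main Cuedc1 start site in kb (x axis), with 1 bar per library and the interval shaded. The window over most of Cuedc1 has 17 and 16 yolk sac peaks and 2 and 2 liver peaks, and the 3 windows to the right of the interval have none in liver.

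Cuedc1 was then set beside genes of like size. Of 868 protein-coding genes of 80 to 120 kb with a promoter peak in all 4 libraries, the median had 1 yolk-sac-only region inside (quartiles 0 and 2), and 379 (43.7%) had none. Cuedc1 had 11, and 2 genes had more, Coro2b and Ttc7 with 12 each. Among all 21951 protein-coding genes, 41 had more. The Cuedc1 interval was chosen on these lists for its larger number of peaks in yolk sac. The rank of Cuedc1 follows in part from that choice and is given as a description.

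**Figure D5:**
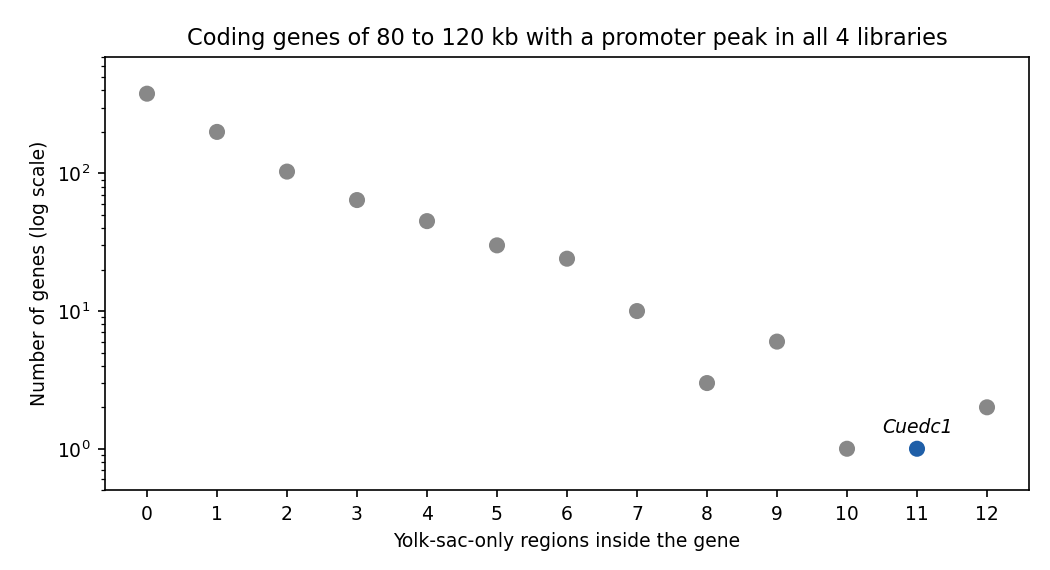
Number of protein-coding genes of 80 to 120 kb (y axis, log scale) by the number of yolk-sac-only regions inside the gene (x axis), with each point a count of genes and Cuedc1 in blue. Of 868 genes, 379 have 0 and 2 have more than the 11 of Cuedc1, which was chosen on these lists.

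The genes most like Cuedc1 were those with the smallest Euclidean distance between the 4 numbers of peaks inside the gene. Nearest was Coro2b, an actin-binding coronin gene on chromosome 9 (62419492 to 62537044), with 18 and 16 yolk sac peaks and 3 and 3 liver peaks, at a distance of 1. Rgs3, a regulator of G protein signalling on chromosome 4 (62559847 to 62704001), had 19 and 17 yolk sac peaks and 2 and 3 liver peaks, at 1.41. The protocadherin genes Pcdhga2 and Pcdhga1 of chromosome 18 each had 17 and 18 yolk sac and 3 and 2 liver peaks, at 1.73, and overlap, so that they share these peaks. Rgl1, a guanine nucleotide exchange factor gene on chromosome 1 (152516760 to 152766351), had 18 and 15 in yolk sac and 3 and 3 in liver, at 2. Likeness here rests on counts in 4 libraries only.

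Other genes for CUE domain proteins were looked at in the same way. All 7 of those examined (Cuedc2, Tollip, Ascc2, Aup1, Smarcad1, Tab2 and Tab3) had a promoter peak in all 4 libraries, like Cuedc1. None had a yolk-sac-only region inside the gene, which also holds for 16672 of all 21951 protein-coding genes (76%). Ascc2, which takes part in DNA alkylation repair, had 3 and 4 liver and 1 and 1 yolk sac peaks, with 2 liver-only regions. Tab3, an adaptor of the kinase TAK1, had 3 and 2 liver and 2 and 2 yolk sac peaks, with 1 liver-only region. These genes are 3288 to 73479 bp long and thus shorter than Cuedc1, at 96083 bp.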

How the data were processed

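PRO-seq was measured in 4 libraries, 2 of liver and 2 of yolk sac. The authors deposited 1 peak list per library, with a unitless score per peak, used here within a list only. Per the submitters' processing notes, Bowtie2, bedtools and mm10 were used, with no roles or versions. The file names carry the word dREG. Its version, filters and read counts are not given in the sources used here, so depth is unknown and the number of libraries limits the precision.

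The following were computed with scipy 1.17.1, pandas 2.3.3 and numpy 2.4.6 under Python 3.11.15. Starts and genes came from GENCODE M21 (GRCm38), of the same build as mm10, and start windows from RefSeq (GRCm38.p6), all given 1-based. Peaks were assigned to an interval or gene by their middle and merged into regions by an overlap of at least 1 bp. The merging was tested on simulated lists, where 20000 of 20000 regions were returned in their pattern. Simulated regions lay far apart, with at most 1 peak per library, so close, split or very narrow peaks were not tried. Flank counts were compared with an exact permutation test over the 6 assignments of libraries. Alternatives were other list lengths, score filters, overlaps, merge distances and promoter windows, lists with each library left out in turn, and a block for replicate number.

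Genes named are those of the interval and flanks, a list of CUE domain genes, marker genes, and the 5 genes nearest to Cuedc1 by peak numbers. Coro2b and Ttc7 as genes with more regions, and Msi2, were named after their values were seen. The interval, members and lists were chosen with earlier results of these data known. The planned motif and base composition search in the regions themselves was not run, and start windows were searched instead. One gene each of the planned CUE domain and erythroid lists is not reported here.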

Additional observations from a re-analysis of the deposited data

How the results depend on the processing

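With 2 libraries per tissue no test could pass a threshold, so a difference counts as moved here when it shifts by more than 1 SD between replicates, and a count when it shifts by more than 1.5 times. Depth is unknown, and both yolk sac lists are longer than the liver lists. Cut to the top 24333 peaks by score, the lists gave a difference of 8.5 in place of 19.5 peaks in the interval. Yolk-sac-only regions then numbered 8 in place of 15, all inside Cuedc1 and all among the 15. The difference in both flanks together reversed from 10.5 to -0.5. Widths and percentiles from here on are medians per yolk sac library, averaged over the yolk sac libraries kept. In the full lists, yolk-sac-only regions of the interval had median widths of 852 and 902 bp in replicates 1 and 2, averaging 877 bp. Their median percentiles were 62.4 and 44.6, averaging 53.5. With the top 24333 peaks these averages moved to 964.5 bp and 71.2. With the higher-scoring 50% of each list, the differences were 10.5 and 4 peaks. The yolk-sac-only regions then numbered 8 (7 in Cuedc1), of which 5 were among the 15 and 3 had lost liver peaks. Their averaged medians were 1077 bp and 81.3. Percentiles stayed those of the full lists under both cuts by score, so a rise in percentile was built into these cuts. Joining peaks within 500 bp gave a median width of 777 bp. It also joined the peak upstream of Cuedc1 to the promoter region. Without each library in turn, the liver-only regions ranged from 0 to 1, the median width from 702 to 902 bp and the median percentile from 40.5 to 57.2, and the difference in the interval from 18.5 to 20.5 peaks. The lowest percentile was without yolk sac replicate 1. With the replicate number as a block, the differences were 19.5 and 10.5 peaks (exact permutation p = 0.5 for the flanks, the smallest that 2 pairs allow). Numbers do not pair the libraries in the labels. Over the 13246 windows of 100 kb with a peak in any library, the replicate differences of the tissues had a correlation of 0.00327. The alternative window for sequence features was not run.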
